A study of Mus musculus with 20 samples.

Results

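Prostanoid and leukotriene synthesis in the mouse trachea was followed through 10 genes, Pla2g4a, Ptgs1, Ptgs2, Ptges, Ptgis, Hpgd, Alox5, Alox5ap, Alox15 and Ltc4s. Every non-control probe of the array that carried one of these gene names was taken, which gave 16 of the 41174 probes and 10 of the 27962 gene names on the array. A probe was tested if at least 10 arrays measured it well above background, and 15 of the 16 probes met this filter, and together they covered every gene. The remaining probe, the third for Hpgd, was well above background on 0 arrays and has no measured level.

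Both families of lipid mediators start from arachidonic acid, which phospholipase A2 enzymes such as Pla2g4a cut from membrane phospholipids. The cyclooxygenases Ptgs1 and Ptgs2 convert it to prostaglandin H2, from which terminal synthases make prostaglandin E2 (Ptges) or prostacyclin (Ptgis), and Hpgd inactivates prostaglandins. In the other branch, Alox5 with its membrane partner Alox5ap makes leukotriene A4, Ltc4s conjugates this to glutathione, and Alox15 adds oxygen to arachidonic and linoleic acid on the way to other lipid mediators. Leukocytes carry most of the leukotriene branch, while airway epithelium, smooth muscle and endothelium are known sources of prostanoids.

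Whole tracheas came from 4 groups of 5 mice, labelled as 4 months old with no sex given, while the methods of the study name both sexes and a wider age range: uninjured wild-type (C57/Bl6), uninjured Myd88 KO, and both genotypes 3 days after 2% polidocanol, a detergent that strips the tracheal epithelium. Myd88 is the adaptor through which most Toll-like receptors and the interleukin 1 receptor signal, and it was missing in the Myd88KO mice from the germ line in every cell. Knockout mice were bred among themselves after back-crossing and the wild-type mice came from a separate colony, so that colony and genotype cannot be told apart. The RNA of each trachea was labelled with one dye and put on its own whole mouse genome array, and each of the 5 slides carried 1 array of every group, so that the replicate number is also the slide number. Values are given as a level, the log2 intensity of a probe minus the 75th percentile of that array, and levels are compared between tracheas for 1 probe at a time.

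The arrays had 57.5% to 67.8% of their spots well above background. Markers of basal (Krt5), ciliated (Foxj1) and cartilage (Col2a1) cells were each well above background on every array by at least 1 probe, as in a whole trachea, and genes of skeletal muscle, fat and thyroid were detected as well. The Myd88 probe read 1.94 to 2.28 in uninjured wild-type, 1.60 to 2.04 in uninjured Myd88KO, 2.36 to 2.80 in injured wild-type and 1.54 to 2.09 in injured Myd88KO tracheas. Whether this probe lies in the deleted part of the gene is not given in the sources used here, so that it does not test the labels. Injured Myd88KO replicate 5 stood apart from its group by Saa3, an acute-phase gene. Its level was -6.26, within the -7.47 to -5.91 of the uninjured Myd88KO tracheas, whereas the other injured Myd88KO tracheas read -3.87 to 0.23. Uninjured wild-type tracheas read -6.80 to -3.11, and injured Myd88KO replicate 1, at -3.87, also lay within that range. The injury differences of members in Myd88KO tracheas are given with and without replicate 5.

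After injury of wild-type tracheas, Alox15 fell and Alox5ap rose, and these were the only members whose difference passed the test (adjusted p under 0.01), 2 of 15 probes against 5.26% of all 26063 probes tested. Alox15 fell by 3.21 on the log2 scale, a 9.23-fold lower intensity, and Alox5ap rose by 1.86, a 3.62-fold higher intensity. In 3 of the 15 probes, those of Alox15 and Alox5ap and the first of Hpgd, the injured and uninjured wild-type groups did not overlap, which held for 12.6% of all probes. At an unadjusted p under 0.05 there were 6 of 15 member probes against 26.4% of all probes. After injury of Myd88KO tracheas 0 of 15 passed in limma, against 0.376% of all probes, and 0 of 15 had an unadjusted p under 0.05, against 19.5% of all probes. Without injured Myd88KO replicate 5 it was again 0 of 15, while 4.12% of all probes then passed. The median difference over the 15 probes was 0.38 in wild-type and -0.09 in Myd88KO tracheas, beside 5.9e-05 and -0.07 over all probes.

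**Figure D1:**
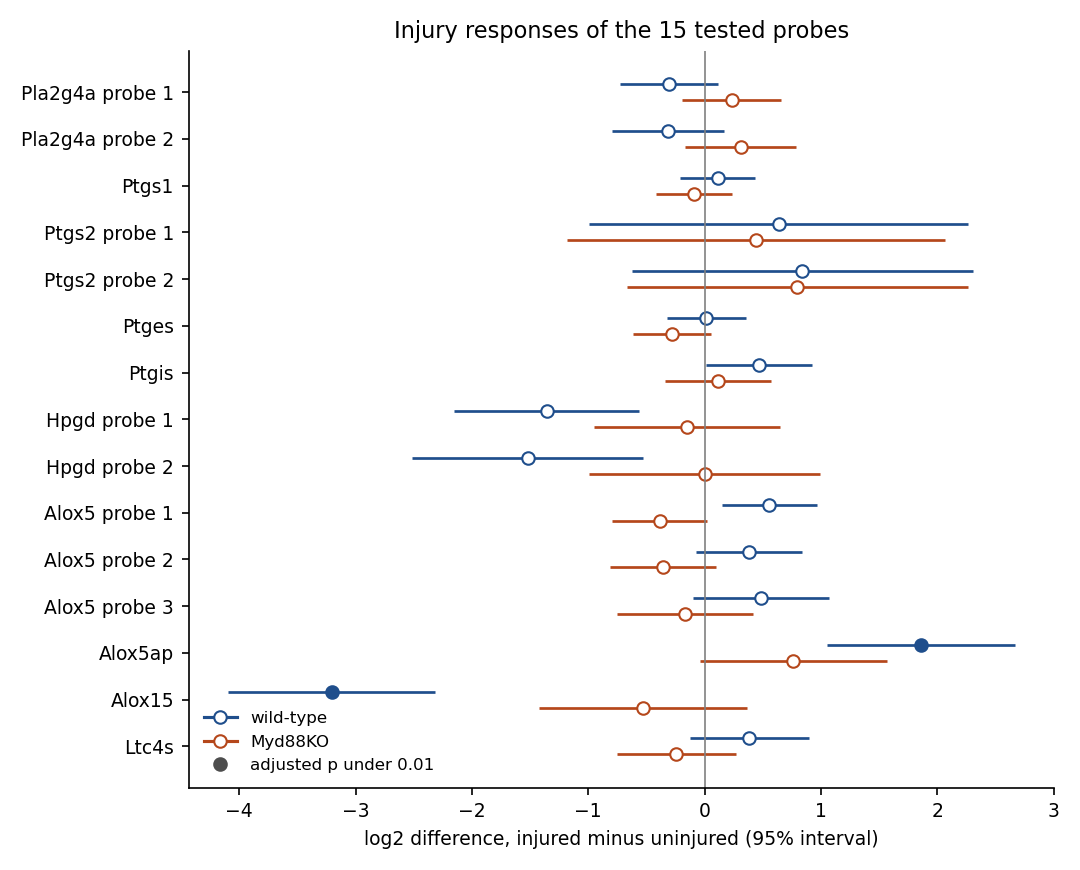
Log2 difference between injured and uninjured tracheas for each of the 15 tested probes, with its 95% interval from the limma fit, in wild-type (blue) and Myd88KO (orange) mice. Filled circles mark an adjusted p under 0.01, which held for Alox15 (-3.21) and Alox5ap (1.86) in wild-type and for 0 probes in Myd88KO.

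Pla2g4a, the cytosolic phospholipase A2 that releases arachidonic acid, was measured by 2 probes, both well above background on all 20 arrays. Its first probe ranged from 0.25 to 0.83 in uninjured wild-type, -0.09 to 0.79 in injured wild-type, -0.19 to 0.62 in uninjured Myd88KO and 0.03 to 0.90 in injured Myd88KO tracheas. The 4 groups overlapped in both probes. The injury difference was -0.30 (SE 0.20, adjusted p = 0.362) in wild-type and 0.23 (SE 0.20, adjusted p = 0.568) in Myd88KO tracheas for the first probe, and -0.31 and 0.31 for the second. Without injured Myd88KO replicate 5 the Myd88KO differences were 0.33 and 0.43. Of 12 probes for 9 other phospholipase genes, 0 passed the test in either genotype, with 0 at an unadjusted p under 0.05 in wild-type and 2 in Myd88KO.

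Of the 2 cyclooxygenases, Ptgs1, the constitutive form, lay between 0.98 and 1.78 in all 20 tracheas. Its injury difference was 0.11 (SE 0.15, 95% interval -0.21 to 0.43) in wild-type and -0.09 (SE 0.15, 95% interval -0.41 to 0.23, and -0.09 without replicate 5) in Myd88KO tracheas. Ptgs2, the form that inflammatory signals and growth factors induce in many cells, was close to background, and its first probe, spotted 10 times on each array, was well above background on 14 of the 20 arrays. In uninjured tracheas that probe ranged from -5.41 to -3.67 in wild-type and from -6.71 to -3.30 in Myd88KO. In injured wild-type tracheas it read -2.81, -4.36, -3.48, -6.58 and -1.65 in replicates 1 to 5, and in injured Myd88KO tracheas -5.07, -3.61, -4.24, -2.60 and -4.83. All groups overlapped, and in each injured group 4 of the 5 arrays were well above background, so that the lowest readings have no order. The injury difference was 0.63 (SE 0.78, 95% interval -0.99 to 2.26, adjusted p = 0.649) in wild-type and 0.44 (SE 0.78, adjusted p = 0.803, and 0.63 without replicate 5) in Myd88KO tracheas. The second Ptgs2 probe gave 0.84 (SE 0.70, 95% interval -0.62 to 2.30) and 0.80 (SE 0.70, 95% interval -0.67 to 2.26, and 1.03 without replicate 5). Intervals this wide show neither a change nor its absence in this gene.

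The windows before the start of the transcript are shown for this pair because both genes code for the same reaction while one was well above background on 20 arrays and the other on 14, and for Hpgd because both of its measured probes were lower in injured wild-type tracheas. They are 250 bases before the start, from RefSeq (GRCm38.p6), on the plus strand in all 3 cases, 5′ to 3′, with matches to a searched motif in capitals. Ptgs1 lies at chr2:36230176-36230425, Ptgs2 at chr1:150099781-150100030 and Hpgd at chr8:56294302-56294551.
Ptgs1: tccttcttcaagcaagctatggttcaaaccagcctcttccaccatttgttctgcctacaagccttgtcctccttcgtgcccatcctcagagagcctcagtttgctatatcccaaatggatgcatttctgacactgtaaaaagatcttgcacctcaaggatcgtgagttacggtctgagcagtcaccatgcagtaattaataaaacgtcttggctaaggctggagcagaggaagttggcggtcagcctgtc
Ptgs2: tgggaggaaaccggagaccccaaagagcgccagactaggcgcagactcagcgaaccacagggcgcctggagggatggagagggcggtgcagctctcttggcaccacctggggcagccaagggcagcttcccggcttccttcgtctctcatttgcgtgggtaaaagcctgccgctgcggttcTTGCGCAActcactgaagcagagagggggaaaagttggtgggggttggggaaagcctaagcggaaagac
Hpgd: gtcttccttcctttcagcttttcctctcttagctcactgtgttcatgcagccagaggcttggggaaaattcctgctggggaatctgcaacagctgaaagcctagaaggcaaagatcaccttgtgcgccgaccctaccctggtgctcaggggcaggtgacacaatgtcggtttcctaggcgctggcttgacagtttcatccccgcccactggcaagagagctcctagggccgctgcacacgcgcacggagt
The motifs searched on both strands were those of NF-kB by name, C/EBP (TTGCNNAA), AP-1 (TGANTCA), the CRE core (TGACG) and the TATA box (TATAAA), none of which overlapped another match here. The table held windows for 7 of the 10 genes, 8 in all since Pla2g4a had 2, and none for Ptgis, Alox5ap and Alox15. The capitals in Ptgs2 mark a C/EBP match, 69 to 62 bases before the start, which 9.56% of all 32851 windows of the same length held. The only other match was a TATA box on the minus strand in 1 window of Pla2g4a, at 200 to 195 bases before the start, a motif found in 12.4% of windows. Matches to NF-kB (3.9% of all windows), AP-1 (6.75%) and the CRE core (17.8%) were in 0 of the 8 windows, which says only that these letters are not in these bases.

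Of the terminal synthases, Ptges, the inducible prostaglandin E2 synthase, ranged from 0.34 to 0.68 in injured and from 0.35 to 0.65 in uninjured wild-type tracheas, with a difference of 0.01 (SE 0.16, 95% interval -0.32 to 0.35). Injured Myd88KO replicates 3 and 5 had its lowest levels, -0.06 and -0.03, and the difference in that genotype was -0.28 (SE 0.16, adjusted p = 0.355), and -0.18 without replicate 5. Ptgis, which makes prostacyclin, was higher in the injured wild-type trachea on 5 of 5 slides, by 0.07 to 0.91. Its injured wild-type levels of 0.48 to 1.35 overlapped the uninjured levels of 0.23 to 0.81, and the difference of 0.47 (SE 0.22, adjusted p = 0.181) did not pass the test. In Myd88KO tracheas it was 0.11 (SE 0.22, adjusted p = 0.820, and 0.23 without replicate 5), higher on 2 of 5 slides. Injured Myd88KO tracheas were below injured wild-type on 5 of 5 slides (-0.41, SE 0.22, adjusted p = 0.463).

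Hpgd, the dehydrogenase that inactivates prostaglandins, was lower in the injured than in the uninjured wild-type trachea on 5 of 5 slides by both probes. The first probe read 0.92, 1.17, 1.97, 0.59 and 0.84 in uninjured wild-type replicates 1 to 5 and -0.86, -0.02, -0.05, 0.33 and -0.71 in injured wild-type replicates 1 to 5. The 2 groups did not overlap. The difference was -1.36 (SE 0.38), 2.56-fold lower, with an adjusted p of 0.0237, and -1.52 (SE 0.48, adjusted p = 0.0408) for the second probe, so that neither passed the threshold of 0.01. Without injured Myd88KO replicate 4, which enters only the shared estimate of the spread, the first probe passed (adjusted p = 0.00948).

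In Myd88KO tracheas the Hpgd difference was -0.15 (SE 0.38) and -0.00069 (SE 0.48) for the 2 probes (-0.31 and -0.07 without replicate 5), and the injured tracheas divided. Injured Myd88KO replicates 2 and 4 read -0.72 and -1.09 by the first probe, below every uninjured trachea, and replicates 1, 3 and 5 read 1.27, 0.81 and 0.85, above every uninjured Myd88KO trachea. The summed level of the 7 ciliated cell genes in the same 5 tracheas, on the log2 scale, was 7.19, 3.87, 5.09, 2.91 and 5.52. This is the order of the first Hpgd probe. In injured wild-type replicates 1 to 5 that sum was 2.32, 5.20, 4.84, 5.77 and 2.66, again in the order of the first probe. By the second probe, injured Myd88KO replicates 3 and 5 (-0.10 and -0.80) and injured wild-type replicates 1 and 5 (-2.65 and -2.82) were in the other order. The sum was 4.87 to 5.84 in uninjured wild-type and 5.18 to 5.37 in uninjured Myd88KO tracheas. Injured wild-type replicates 2, 3 and 4, at 5.20, 4.84 and 5.77, were thus near the uninjured wild-type range of the sum. Their first-probe Hpgd levels of -0.02, -0.05 and 0.33 were below every uninjured wild-type trachea. Uninjured wild-type replicate 3, with the highest first-probe level (1.97), had the lowest sum of its group (4.87). Other cell type lists are not set beside Hpgd here. The part of ciliated cells in the Hpgd result was not tested. The uninjured Myd88KO levels lay between 0.26 and 0.51, all below the uninjured wild-type levels, with a difference of -0.73 (SE 0.38, adjusted p = 0.957). It was the 1 member probe of 15 without overlap between the uninjured genotypes, against 2.51% of all probes. The injury response in Myd88KO minus that in wild-type was 1.21 (SE 0.54, adjusted p = 0.469) for the first probe and 1.52 (SE 0.67, adjusted p = 0.466) for the second, and 1.05 and 1.45 without injured Myd88KO replicate 5.

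Alox5ap, the membrane protein that presents arachidonic acid to 5-lipoxygenase, read 1.86, 1.04, 0.94, 1.15 and 1.31 in uninjured wild-type replicates 1 to 5. In injured wild-type replicates it read 3.81, 3.04, 2.42, 2.69 and 3.62. All injured wild-type tracheas were above all uninjured ones, and the rise was 1.48 to 2.30 on the 5 slides. The limma difference of 1.86 (SE 0.39) had an adjusted p of 0.0041, and of 0.0049 with slide as a block, where 5.94% of all probes passed. The call was lost when 1 of 4 arrays was left out: the adjusted p was 0.0140 without injured wild-type replicate 1, 0.0124 without injured replicate 5, 0.0133 without uninjured wild-type replicate 2 and 0.0124 without uninjured replicate 4, with differences of 1.68 to 1.83.

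In uninjured Myd88KO tracheas Alox5ap lay between 1.05 and 1.93, which covered nearly the same range as uninjured wild-type (difference 0.09, SE 0.39). Injured Myd88KO replicates 1 to 5 read 1.88, 3.20, 1.22, 3.22 and 1.07. Replicates 2 and 4 were at the level of injured wild-type tracheas and the other 3 were within the range of uninjured tracheas. The injury difference was 0.76 (SE 0.39, adjusted p = 0.287), and 1.02 (SE 0.38, adjusted p = 0.0828) without replicate 5. Injured Myd88KO tracheas differed from injured wild-type by -1.001 (SE 0.39, adjusted p = 0.275), and the injury responses differed by -1.09 (SE 0.55, adjusted p = 0.498), with -0.74 (adjusted p = 0.514) and -0.83 (adjusted p = 0.566) without replicate 5, so that a difference between the genotypes in this gene was not shown. By scan day, the injury difference in Myd88KO was 1.44 over slides 2, 3 and 4 and -0.25 over slides 1 and 5, against 1.68 and 2.13 in wild-type.

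**Figure D2:**
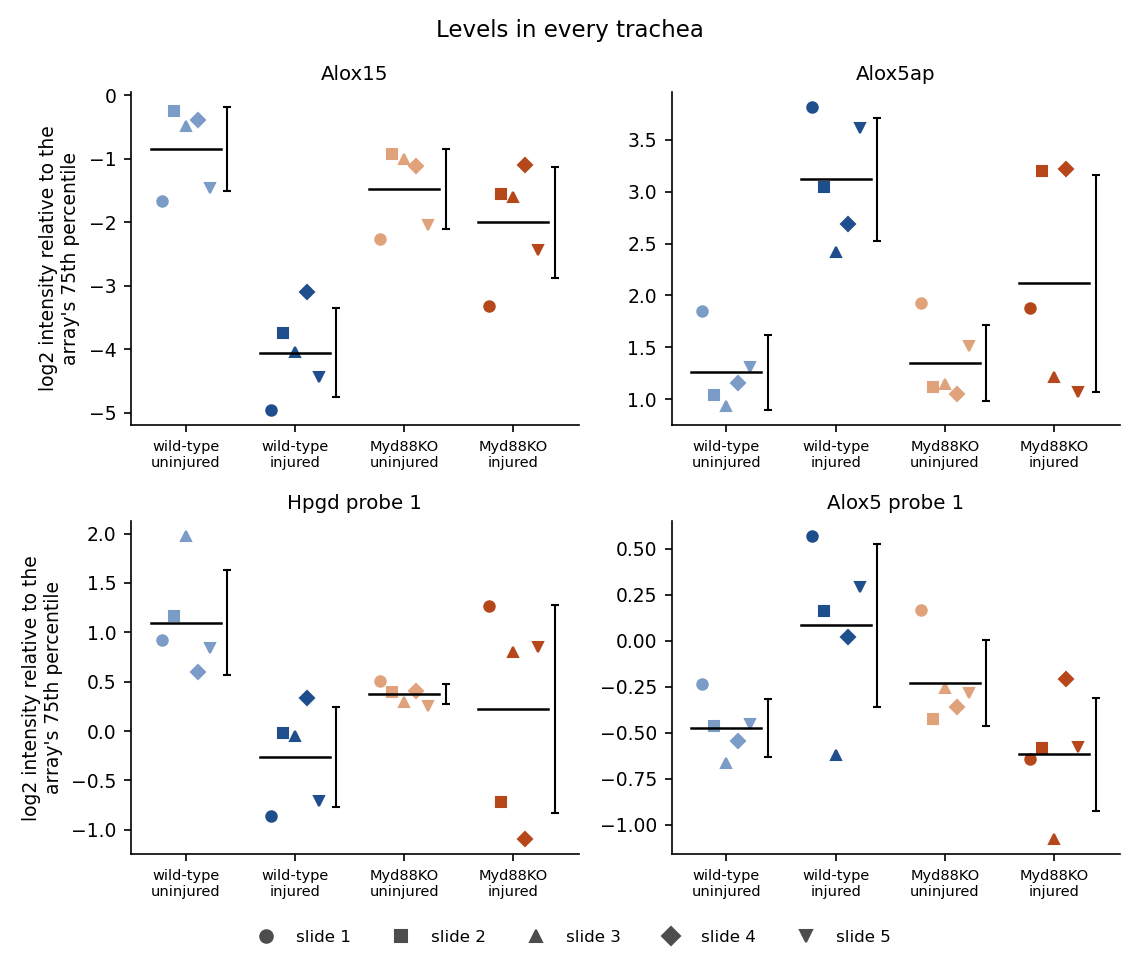
Level of Alox15, Alox5ap, the first Hpgd probe and the first Alox5 probe in each of the 20 tracheas (log2 intensity relative to the 75th percentile of the array), by group, with the symbol giving the slide, the horizontal line the mean and the bar 1 SD of 5 tracheas. Alox15 in injured wild-type tracheas (-4.96 to -3.11) lies below all uninjured tracheas, and Alox5ap in injured Myd88KO tracheas divides into 2 near 3.2 and 3 at 1.07 to 1.88.

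Alox5, the 5-lipoxygenase itself, was measured by 3 probes, all well above background on every array. Its first probe read -0.23, -0.46, -0.66, -0.54 and -0.45 in uninjured wild-type and 0.57, 0.16, -0.62, 0.02 and 0.30 in injured wild-type replicates 1 to 5. Injured replicate 3 lay within the uninjured range and the other 4 lay above it. The difference of 0.56 (SE 0.20, adjusted p = 0.0694) did not pass, and the other probes gave 0.38 (adjusted p = 0.279) and 0.49 (adjusted p = 0.282).

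In Myd88KO tracheas all 3 Alox5 probes had a difference in the other direction, of -0.39 (SE 0.20, adjusted p = 0.288), -0.36 and -0.17, or -0.40, -0.34 and -0.12 without replicate 5. The first probe was lower in the injured Myd88KO than in the injured wild-type trachea on 5 of 5 slides, by 0.70 on average (-0.70, SE 0.20, adjusted p = 0.123, 0.0514 with slide as a block and 0.221 without replicate 5, where it was -0.71). The difference between the injury responses was -0.94 (SE 0.28, adjusted p = 0.391), -0.74 and -0.66 for the 3 probes, and -0.95, -0.73 and -0.61 without replicate 5. Ltc4s, which conjugates leukotriene A4 to glutathione, was higher in the injured wild-type trachea on 5 of 5 slides and lower in the injured Myd88KO trachea on 4 of 5. Its levels of -0.37 to 0.45 and -1.02 to 0.26 in injured tracheas overlapped those of uninjured tracheas, and its differences of 0.38 (SE 0.25, adjusted p = 0.341) and -0.24 (SE 0.25, adjusted p = 0.633, and -0.21 without replicate 5) did not pass.

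Alox15, the 12/15-lipoxygenase of leukocytes and epithelia, had the largest injury difference of the 15 member probes in wild-type tracheas. It read -1.66, -0.25, -0.49, -0.39 and -1.46 in uninjured wild-type replicates 1 to 5 and -4.96, -3.74, -4.04, -3.11 and -4.43 in injured wild-type replicates 1 to 5, of which 4 were well above background. Every injured wild-type trachea was below every uninjured trachea of either genotype. The fall within a slide was 2.72 to 3.55 (-3.55 to -2.72), and the limma difference was -3.21 (SE 0.43, adjusted p = 0.00024). With normexp background correction, which raises values near background, the difference was -1.96 and the adjusted p 0.00025.

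Alox15 read -2.27, -0.93, -1.01, -1.12 and -2.04 in uninjured Myd88KO and -3.32, -1.56, -1.60, -1.10 and -2.44 in injured Myd88KO replicates 1 to 5. The groups overlapped, and the injury difference was -0.53 (SE 0.43, adjusted p = 0.531), and -0.42 (SE 0.46, adjusted p = 0.597) without replicate 5. Uninjured Myd88KO tracheas were below uninjured wild-type on 5 of 5 slides by similar amounts (-0.73 to -0.52), a difference of -0.63 (SE 0.43, adjusted p = 1.00) that did not pass with slide as a block either (adjusted p = 0.106, with 0.388% of all probes called).

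Between injured tracheas Alox15 was higher in Myd88KO than in wild-type on 5 of 5 slides, by 1.64 to 2.43. The difference was 2.05 (SE 0.43, 4.15-fold), and its adjusted p of 0.0236 missed the threshold. With normexp background correction it was 1.08 (adjusted p = 0.0761), and in all it passed in 3 of 10 other settings. The 2 groups overlapped by 1 trachea, injured Myd88KO replicate 1 at -3.32 beside injured wild-type replicate 4 at -3.11. The adjusted p was 0.0041 without injured Myd88KO replicate 1 and 0.0366 without replicate 5, where 0.326% of all probes passed. In all, 0 of 15 member probes passed in this comparison, against 0.38% of all probes, and 4 of 15 had an unadjusted p under 0.05, against 12.5%.

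In each of the 4 groups the 2 lowest Alox15 levels were those of slides 1 and 5, which were scanned on a different day from slides 2, 3 and 4. With slide as a block the SE of the Alox15 differences was 0.15 in place of 0.43. In that fit the difference between the genotypes after injury passed (adjusted p = 1.73e-06), among 0.43% of all probes, and likewise with scan day as a block (adjusted p = 2.68e-06, among 0.522%). The difference between the injury responses, 2.68 on the log2 scale and 2.25 to 2.95 on the single slides, had an adjusted p of 0.390 without the block (0 of 15 members and 0% of all probes called, with 5 of 15 against 10.4% at an unadjusted p under 0.05). With slide as a block its adjusted p was 8.41e-05 (SE 0.22), and Alox15 was then the 1 probe of 26063 (0.00384%) that passed. With scan day as a block the adjusted p was 0.00018, among 2 probes that passed (0.00767%), and on the 2 scan days the difference was 2.85 and 2.41. With normexp correction and no block it was 1.62 (adjusted p = 0.428), and it passed in 2 of 9 other settings. Alox15 also had the lowest p of all probes for injury in wild-type with slide as a block (adjusted p = 4.86e-08).

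In uninjured tracheas 0 of 15 member probes differed between the genotypes in limma, against 0.384% of all probes, and 0 had an unadjusted p under 0.05, against 5.59%. The lowest adjusted p was 0.957, that of the first Hpgd probe.

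Among other genes of the pathway, 53 were listed and 46 were tested with 64 probes. After injury in wild-type 5 probes were higher and 3 lower, for 7 genes, and in the other comparisons 0 of 64 passed. This is 12.5% of the 64 in wild-type, beside 5.26% of all probes. Without injured Myd88KO replicate 5, 2 of 64 fell after injury in Myd88KO (4.12% of all probes passed), Ptgfr and the prostaglandin E2 receptor Ptger3 (-1.60, adjusted p = 0.0040). Unadjusted p values under 0.05 numbered 22 for injury in wild-type, 18 for injury in Myd88KO, 5 between uninjured, 7 between injured genotypes and 7 for the difference between injury responses, which is 34.4%, 28.1%, 7.81%, 10.9% and 10.9% of the 64 beside 26.4%, 19.5%, 5.59%, 12.5% and 10.4% of all probes. The count of 8 changed when single arrays were left out. It was 2 without uninjured wild-type replicate 4 and 3 without uninjured replicate 2 or injured wild-type replicates 1 or 5. It was 4 without uninjured replicate 5 or injured replicate 2, and 5 without uninjured replicates 1 or 3. The share of all probes that passed in these fits is not given here, so that the counts do not set the pathway genes apart from all probes.

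Of the other prostanoid synthases, Tbxas1, thromboxane synthase, rose in injured wild-type tracheas, from -1.64, -1.81, -2.28, -1.67 and -1.87 to 0.22, 0.23, -1.21, -0.20 and 0.42 in replicates 1 to 5. The groups did not overlap, and the rise was 1.74 (SE 0.39, adjusted p = 0.0065), with 1.78 and an adjusted p of 0.0109 for its other probe. Injured Myd88KO replicates read -1.26, -0.06, -1.52, 0.18 and -2.27 (difference 0.87, SE 0.39, adjusted p = 0.228, and 1.19 with 0.0371 without replicate 5), with replicates 2 and 4 again at the injured wild-type level.

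Of the receptors, Ptger1 rose by 1.95 (SE 0.42, adjusted p = 0.0050) and Ptger2 by 0.90 (SE 0.17, adjusted p = 0.0025), both receptors for prostaglandin E2. Ptger1 was well above background on 3 of the 5 uninjured wild-type arrays and on all 5 injured ones. In Myd88KO tracheas Ptger1 read -4.21 to -3.37 uninjured and -4.48 to -2.33 injured. Ptger2 read -3.12 to -2.59 in uninjured wild-type and -2.44 to -1.96 in uninjured Myd88KO tracheas. In injured tracheas Ptger2 read -2.20 to -1.76 in wild-type and -2.59 to -1.78 in Myd88KO. Ptgfr, the receptor for prostaglandin F2alpha, fell by 1.35 (SE 0.23, adjusted p = 0.0012), and its second probe gave -0.79 (adjusted p = 0.0140). In Myd88KO tracheas the Ptgfr probe was lower on 5 of 5 slides (-0.88, SE 0.23, adjusted p = 0.0415), and without replicate 5 it passed (-1.03, adjusted p = 0.0067). Fpr2, a receptor for lipoxin A4 and formyl peptides named Fpr-rs2 on the array, rose by 4.28 (SE 1.02, adjusted p = 0.0092) and was well above background on 1 of 5 uninjured and 5 of 5 injured wild-type arrays. Injured Myd88KO replicates 2 and 4 read -1.08 and 0.29 for Fpr2 and replicates 1, 3 and 5 read -4.54, -5.43 and -6.43.

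Dpep2, a dipeptidase that converts leukotriene D4 to leukotriene E4, rose by 2.30 (SE 0.52, adjusted p = 0.0066), with 1 of 5 uninjured and 5 of 5 injured wild-type arrays well above background. In Myd88KO tracheas Dpep2 read -5.25 to -4.64 uninjured and -5.10 to -2.05 injured. Alox12, the 12-lipoxygenase best known from platelets, fell by both probes, by 0.93 (-0.93, SE 0.15, adjusted p = 0.00091) at the first and by 0.98 (-0.98, SE 0.22, adjusted p = 0.0073) at the second. Its probes lie on chromosome 11 at 70323787 to 70323846 and 70324014 to 70324073, and that of Alox15, which fell in the same comparison, at 70427187 to 70427411 on the same chromosome, in the coordinates of the array files, whose genome build is not stated. In Myd88KO tracheas both Alox12 probes were lower after injury on 5 of 5 slides (-0.37, adjusted p = 0.192, and -0.35, adjusted p = 0.418).

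**Figure D3:**
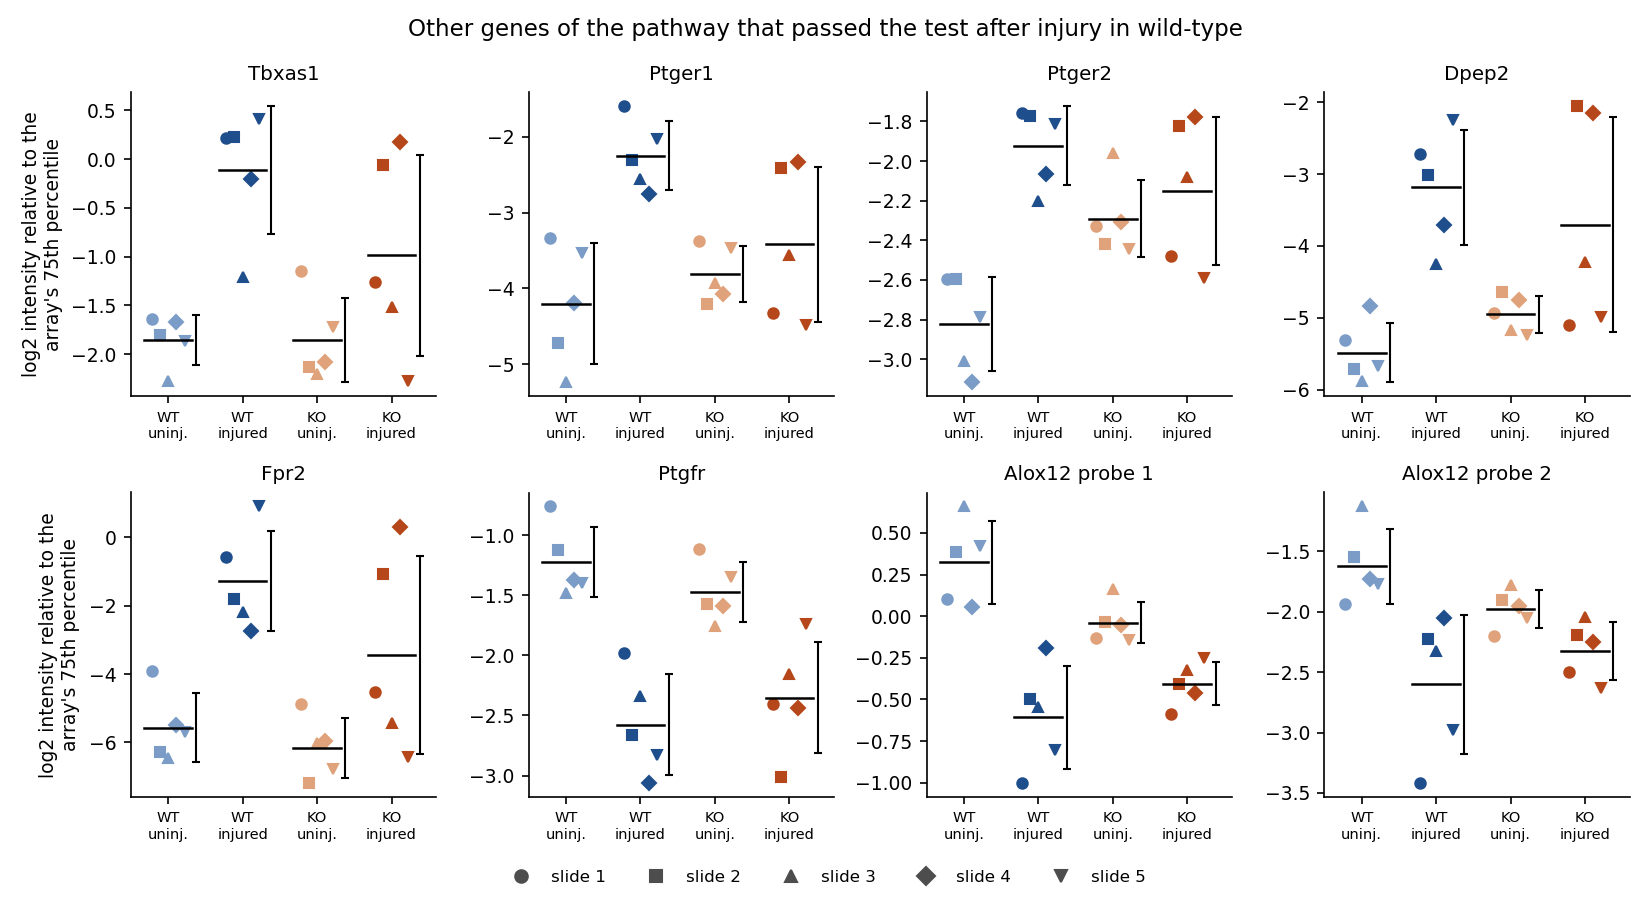
Level of the 8 other pathway probes that passed the test after injury in wild-type mice, in each of the 20 tracheas (log2 intensity relative to the 75th percentile of the array), with the slide as symbol, the mean as line and 1 SD of 5 tracheas as bar. Injured wild-type tracheas lie above uninjured wild-type ones for Tbxas1, Ptger1, Ptger2, Dpep2 and Fpr2 and below them for Ptgfr and both Alox12 probes.

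Marker RNA of several cell types changed in the same tracheas, and in whole tissue fewer cells of a type and less RNA per cell cannot be told apart. Of 135 tested probes for markers in 16 cell type lists, 8 rose and 11 fell after injury in wild-type, 14.1% beside 5.26% of all probes. Those that rose were 7 of 14 macrophage probes (among them Cd68, by 3.27, and Msr1, by 3.93) and 1 of 8 neutrophil probes (Csf3r, by 4.05). Of the 5 uninjured wild-type arrays, 3 were well above background for that Msr1 probe and 2 for Csf3r. Those that fell were 4 of 8 club and secretory probes, led by Scgb1a1 (-7.91), 3 of 8 tuft, 3 of 10 ciliated and 1 of 3 platelet probes. In the lists for mast cells, eosinophils, basal cells, endothelium, smooth muscle, fibroblasts, cartilage, skeletal muscle, thyroid and fat, 0 probes passed. After injury in Myd88KO 2 of the 135 passed (1.48% beside 0.376%), the secretory genes Scgb1a1 (-6.24) and Bpifa1 (-2.36). Both values rest on 4 injured tracheas, since replicate 5 was left out as an outlier for these genes. Without replicate 5 throughout, 3 of the 135 marker probes rose and 5 fell, while 4.12% of all probes then passed.

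The summed level of the 9 macrophage genes, on the log2 scale, was 2.58 to 3.07 in uninjured wild-type, 4.13 to 5.72 in injured wild-type, 2.37 to 3.47 in uninjured Myd88KO and 2.48 to 5.20 in injured Myd88KO tracheas. In the last group replicates 2 and 4, those with the high Alox5ap and Tbxas1, read 5.08 and 5.20 and the others 2.48 to 3.66. This division was not particular to macrophage genes. In the same group the fibroblast sum was 9.01 and 8.79 in replicates 2 and 4 and 7.10 to 8.35 in the others. The endothelial sum was 5.01 and 4.95 against 4.26 to 4.50. The neutrophil sum did not divide in this way and was highest in replicate 5 (9.44). The 3 genes most like Alox5ap over the 20 arrays, among 25828 probes compared, were Nckap1l, Tnfaip8l2 and P2ry6, with root mean square differences of 0.14, 0.18 and 0.18 after centring, beside a spread of 0.95 in Alox5ap itself. They differed by 1.87, 1.90 and 2.06 after injury in wild-type. The part of macrophage number in the Alox5ap result was not tested.

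Of the 8 club and secretory genes, 5 had a value on every array, so that Scgb1a1, Bpifa1 and Aldh1a1 are not in the sum. The summed level of the 5 was 10.2 to 11.2 in uninjured wild-type, 9.55 to 9.96 in injured wild-type and 10.5 to 11.1 in uninjured Myd88KO tracheas. In injured Myd88KO replicates 1 to 5 it was 10.2, 10.1, 9.77, 9.81 and 10.98, beside Alox15 levels of -3.32, -1.56, -1.60, -1.10 and -2.44. Replicates 3 and 4 lay within the injured wild-type range of this sum and within the uninjured range of Alox15. Replicates 1 and 5, with the highest sums of the group, had its lowest Alox15. Scgb1a1 gave another picture. It read 4.79, -0.84, 2.72 and 0.18 in injured Myd88KO replicates 1 to 4 and -1.16 to -0.08 in injured wild-type tracheas. By this gene replicates 3 and 4 were above every injured wild-type trachea. The tuft list read -0.39 to 0.57 in injured wild-type, -0.54 to 1.01 in injured Myd88KO and 0.46 to 1.43 in uninjured tracheas. Of the eosinophil markers, Epx, Prg3 and Il5ra were well above background on 0 of the 20 arrays and Ear1 on all. Siglecf was so on 0 uninjured, 5 injured wild-type and 2 injured Myd88KO arrays, and 1 Ccr3 probe on 1 uninjured array of each genotype, 5 injured wild-type and 3 injured Myd88KO arrays. The other Ccr3 probe was so on 1 uninjured wild-type array and on 0 injured arrays of either genotype. The summed level of the 3 tested eosinophil genes was -2.29 to -1.19 in uninjured wild-type, -1.80 to 1.40 in injured wild-type, -2.33 to -1.11 in uninjured Myd88KO and -1.93 to -0.06 in injured Myd88KO tracheas. The 3 genes most like Alox15 were Cyp2b9, Cyp2b10 and Cyp2b13, members of one cytochrome P450 subfamily, with root mean square differences of 0.71 to 0.73 beside a spread of 1.37 in Alox15. They differed by -1.59, -1.61 and -1.61 after injury in wild-type and by -0.55, -0.46 and -0.52 in Myd88KO. The part of the epithelial and leukocyte changes in the Alox15 result was not tested.

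**Figure D4:**
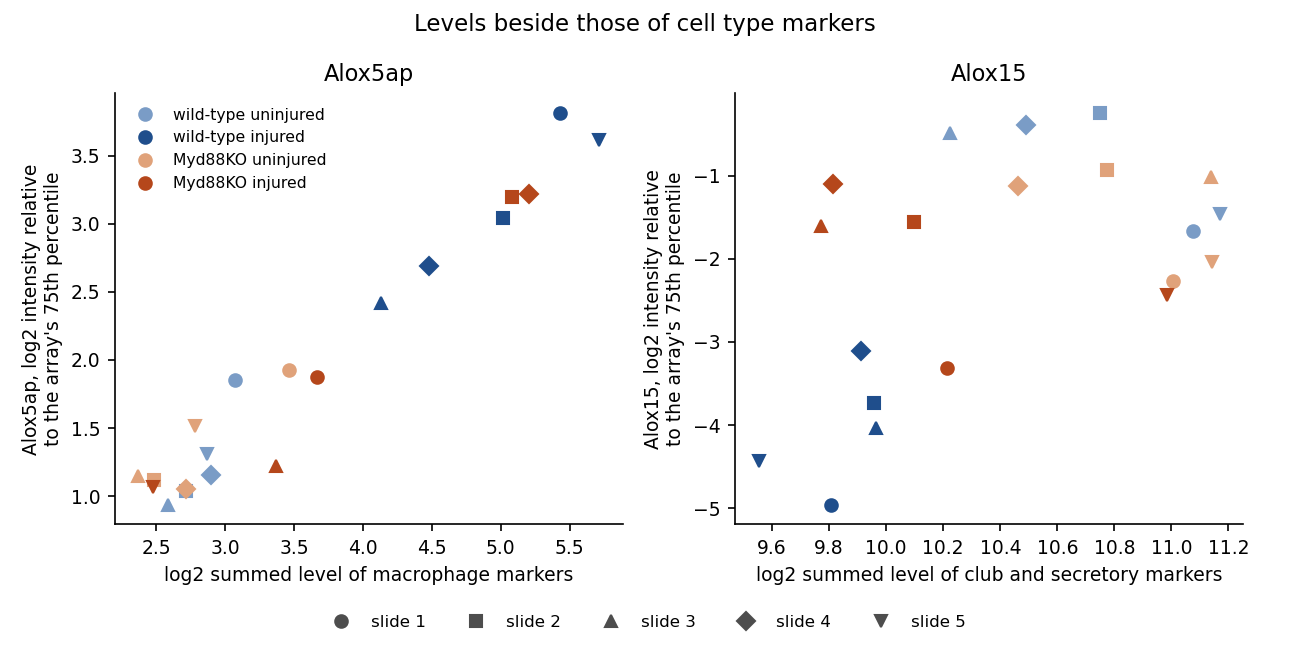
Level of Alox5ap beside the log2 summed level of 9 macrophage markers (left) and of Alox15 beside that of 5 club and secretory markers (right). Scgb1a1 is not among the 5. Each point is 1 trachea, the colour giving the group and the symbol the slide. Injured Myd88KO replicates 2 and 4 lie among the injured wild-type tracheas on the left, and replicates 2, 3 and 4 lie above them on the right, with Alox15 at -1.60 to -1.10, while replicates 1 and 5 have Alox15 at -3.32 and -2.44.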

How the data were processed

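Total RNA of 20 whole tracheas was hybridized to one-colour Agilent arrays. The authors deposited the intensity of each spot as given by Feature Extraction 9.5.1.1, background-subtracted and not scaled between arrays, and a value table with the same intensity, rounded. Of 45018 spots per array, 1639 controls were left out, and so were 1960 outlier values over the 20 arrays together. Spots of a probe were averaged as log2 intensity, and the 75th percentile of each array was subtracted. Probes well above background on at least 10 of 20 arrays were tested (26063). In R 4.3.3, limma 3.58.1 was fitted to the 4 groups together, with 5 contrasts, Benjamini-Hochberg adjustment within each over all tested probes and a threshold of 0.01, and was tested on simulated data. SE and 95% intervals are those of the fit. Precision is limited by having 5 arrays per group. Without a block, p values measure the spread between arrays of a group, in which animal, slide and scan day are not separated.

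Groups were taken from the sample titles. Members, pathway genes and marker lists were chosen with earlier results of these data known. Named are all members, each listed pathway gene with a called probe and, for members with a called probe, the 3 genes of smallest root mean square difference after centring. Saa3, single markers and second probes were named after their values were seen. Summed levels add the linear intensities of a list's genes that have a value on every array. Promoter windows are from RefSeq (GRCm38.p6), and the array coordinates are of an unstated build. Alternatives were another background correction, scaling, value source, filter, outlier handling, block, weighting, sample choice and test, and leaving out each array.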

Additional observations from a re-analysis of the deposited data

Results flagged for a closer look

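Among the 60 groups of 5 tracheas in which the members were examined, 2 had a trachea far from the others, both times uninjured Myd88KO replicate 1. Its Alox5 level by the first probe was 0.17, and the nearest of the other 4 was -0.26. Its Ltc4s level was 0.52, and the nearest of the other 4 was -0.15. Chance flags about 1 in 20 groups.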

How the results depend on the processing

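The fall of Alox15 after injury in wild-type passed in all 10 other settings in which it was tested (-3.38 to -1.96) and without any 1 array (-3.44 to -2.98). The rise of Alox5ap passed in all 11 (1.80 to 1.86) and in 16 of 20 fits without 1 array (1.68 to 2.03). The count of members called after injury in wild-type, 2, was 1 on probes well above background on all 20 arrays, where Alox15 is not tested, and 1 to 3 without single arrays. With slide as a replicate block, Alox15 (2.05 and 2.68) added 1 member to the comparison of injured genotypes and 1 to the difference between injury responses, as it did with scan day as a block. With array weights it added 1 to the comparison of injured genotypes (2.57, adjusted p = 0.0012), and without single arrays that count was 0 to 1. The block changed no other member's call. Samples of one slide did not all deviate together, with correlations of deviations from the group means between -0.26 and 0.48 (medians 0.08 to 0.42 by slide). For pairs of different slides and groups these were -0.51 to 0.54, with a median of -0.08, which is below the median of every slide. The labels do not say what a replicate number marks. The count of other pathway probes after injury in wild-type, 8, was 5 with normexp correction and with the all-array filter, 2 with the methods' one-way test, and 2 to 10 without single arrays. In Myd88KO that count, 0, was 1 with scan day as a block, 7 with array weights and 0 to 2 without single arrays. Without injured Myd88KO replicate 5, 4.12% of all probes passed. For most of these fits the share of all probes is not given here, so that the counts do not set the pathway genes apart from all probes. The methods' one-way test called 2, 0, 0, 0 and 0 members in the 5 comparisons after adjustment, beside 1049, 0, 46, 21 and 0 of all probes, and 3, 0, 0, 1 and 2 at an unadjusted p under 0.01, beside 3800, 1275, 743, 602 and 729. The causes were not tested.

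Among differences near 0, 4 changed sign in other settings: the second Hpgd probe for injury in Myd88KO (0.053 with normexp, 0.0017 with quantile scaling), both Ptgs2 probes between uninjured genotypes with normexp (0.036 and 0.021) and the second Ptgs2 probe in the difference between injury responses with array weights (0.20). Without single arrays, signs changed for Ptges after injury in wild-type (-0.035 to 0.058). After injury in Myd88KO they changed for the first Ptgs2 probe (-0.11 to 0.74), Ptgis (-0.025 to 0.25), the Hpgd probes (-0.41 to 0.18 and -0.26 to 0.33) and the third Alox5 probe (-0.32 to 0.026). Between uninjured genotypes they changed for Ptgs1 (-0.0047 to 0.15), the Ptgs2 probes (-0.40 to 0.45 and -0.63 to 0.24), Ptgis (-0.13 to 0.015), the third Alox5 probe (-0.028 to 0.28) and Alox5ap (-0.050 to 0.24). The Ptgs2 probes changed sign between injured genotypes (-0.99 to 0.24 and -0.84 to 0.12) and in the difference between injury responses (-0.89 to 0.34 and -0.56 to 0.40). Ptgs2 is limited by its signal, with 14 and 12 of 20 arrays well above background.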
